A study of Mus musculus with 33 samples.

Results

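The genes described here encode proteins of the complement system, of blood clotting and of the breakdown of clots. Of 40 listed genes, 37 had a probe set that the platform annotation pairs with that symbol alone, out of 18193 genes with such a probe set, and the brightest of these probe sets stood for each gene. All 37 passed the filter on dim genes (3 arrays or more with a log2 value that reaches 5), as did 13642 genes in all. C3 and Cpb2 had no probe set of their own in that annotation and are not analysed here, and C4b shared its probe set with C4a.

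Total RNA from mouse liver was hybridized to 33 Affymetrix arrays, 3 biological replicates at each of 11 times after removal of 70% of the liver. Livers were taken at the start (0 days, 0 d), at 0.25, 0.5 and 0.75 d on the first day, at 1, 1.5 and 2 d, at 3 and 4 d, and at 7 and 14 d. The 0 d livers were the reference, the labels used here name no sham-operated group, and they give no strain, sex or age, so the operation and the loss of tissue cannot be told apart. The tissue and source labels say liver while a description field speaks of cells from fat; every array had the hepatocyte product albumin (Alb) at 14.60 to 14.80, and the fat cell hormone genes Adipoq and Lep had means under 5 at every time, although Adipoq reached up to 7.07 on single arrays, above 5 on 1 array each of 0 d, 0.25 d, 2 d and 7 d. Other fat cell markers rose on the first day. Of 3 fat cell markers tested (Adipoq, Cidec and Fabp4), Cidec and Fabp4 were called higher at 0.25 d and at 0.5 d, where 17.2% and 15.8% of all genes tested were. Cidec, a lipid droplet protein, had means of 4.20 at 0 d, which is under the filter value of 5, 9.51 at 0.25 d and 7.50 at 0.5 d. Fabp4, a fatty acid binding protein also made by macrophages and endothelial cells, had means of 7.93, 9.99 and 9.39. The mean over the 4 measured markers lay between 4.33 and 5.40 at 0 d, 6.36 and 7.20 at 0.25 d, 5.30 and 6.70 at 0.5 d, and 4.92 and 4.96 at 0.75 d. Their part in the differences of these times was not tested.

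Complement is a cascade of plasma proteins that tags microbes and damaged cells and ends in a pore, the membrane attack complex. Clotting is a second cascade of proteases, which ends when thrombin turns fibrinogen into fibrin, and plasmin dissolves the fibrin again. Hepatocytes make most of these proteins and secrete them into the blood, several of the clotting proteases only after a vitamin K dependent modification, and fibrinogen is a classical acute phase protein.

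The data show a fall of most of these genes within the first day, with a rise of the 3 fibrinogen chains and of thrombomodulin. Of 37 genes, 26 were called lower than 0 d at 0.25, 0.5 or 0.75 d, and 4 were called higher (Fga, Fgb, Fgg and Thbd). Over all genes tested, 33.4% were called lower and 26.0% higher at 1 or more of these 3 times. The 26 include Masp1, whose probe sets disagreed, and 25 are left without it. With only the arrays of the times compared 20 of the 37 were lower, and with 2 arrays that stand apart left out (0.25 d replicate 1 and 0.5 d replicate 3) 24 were. Calls over all genes moved as well. With all arrays 3925, 2650 and 1734 of 13642 genes were lower at 0.25, 0.5 and 0.75 d. With only the arrays compared these were 2591, 1438 and 1618. Without the 2 arrays they were 3496, 2210 and 2173 of 13591. The lectin gene Mbl1, the protease inhibitor gene Serping1, the vitronectin gene Vtn and the kininogen gene Kng1 were called at none of the 10 later times. At 4, 7 and 14 d none of the 37 was called. A gene is called where limma's moderated test gave an adjusted p under 0.05 (Benjamini-Hochberg over all genes of that comparison), differences are on the log2 scale against the mean of the 0 d arrays, ± gives the fit's standard error, and n = 3 arrays at each time.

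The moderated F-test over the 11 times called 34 of the 37 genes, where 69.4% of all genes tested were called. The exceptions were Serping1, Vtn and the protein S gene Pros1. The span between a gene's highest and lowest time mean had a median of 0.73 over the 37 genes and 0.542 over all genes tested.

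Against 0 d, 4 of the 37 genes were higher and 23 lower at 0.25 d, where 17.2% of all genes tested were higher and 28.8% lower. At 0.5 d the counts were 4 and 22, against 15.8% and 19.4% of all genes. With only the 0 d and 0.5 d arrays in the fit 12 rather than 22 were lower. Over all 13642 genes tested, 1438 rather than 2650 were lower in that fit. At 0.75 d the counts with all arrays were 4 and 17, against 9.84% and 12.7%. The fall thus reached 62.2%, 59.5% and 45.9% of the 37 genes at these times. At 1 d 4 were higher and 14 lower (8.16% and 9.55% of all genes), at 1.5 d 4 and 11 (8.33% and 11.7%), at 2 d 4 and 11 (11% and 11.6%), and at 3 d 5 and 15 (10.2% and 10.9%). At 4 d 0 were higher and 0 lower by limma (1.88% and 0.975% of all genes), at 7 d 0 and 0 (0.125% and 0.0586%), and at 14 d 0 and 0 (0.0147% and 0%). At an unadjusted p under 0.05 the counts at these 3 times were 7 higher and 2 lower, 6 and 0, and 1 and 1. The share of the 37 genes called higher was 10.8% from 0.25 to 2 d and 13.5% at 3 d. It lay below that of all genes at 0.25 and 0.5 d and near it from 0.75 to 3 d. Through 3 d the shares called lower stood well above those of all genes.

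The 37 genes are bright, and 36 of them have a mean log2 value of 9 or more. Among the 2563 genes that bright, a background chosen after the data were seen, 40.6% were lower at 0.25 d, 32.2% at 0.5 d, 23.3% at 0.75 d and 17.5% at 1 d. Part of the distance between these genes and all genes is thus shared by bright liver genes. Of the bright genes 16.7% were higher at 0.25 d, 24.4% at 0.5 d and 18.3% at 0.75 d, against 10.8% of the 37 genes each time. The median difference of the 37 genes was -0.377 at 0.25 d, -0.434 at 0.5 d and -0.221 at 0.75 d. Over all genes tested it was -0.029, -0.004 and -0.005, and over the bright genes -0.165, -0.066 and -0.036.

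**Figure D1:**
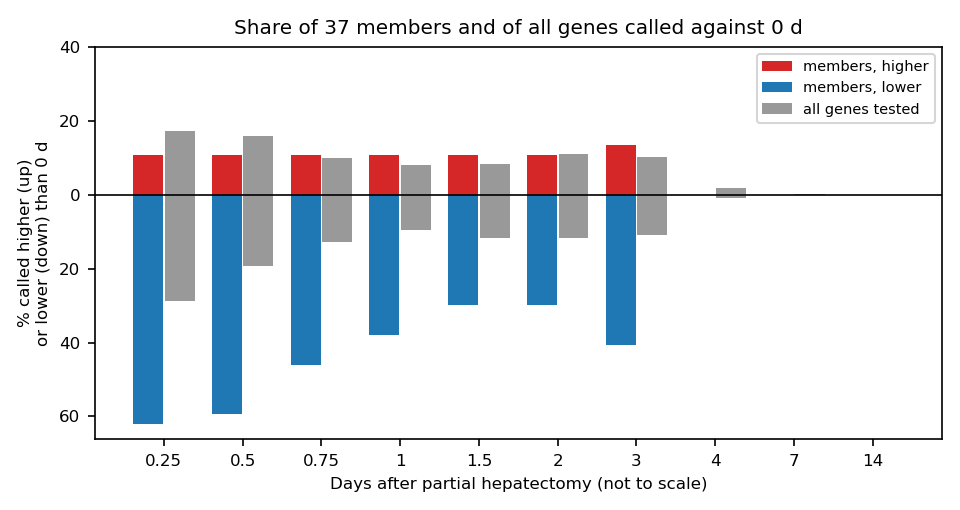
Percent of the 37 genes (red, called higher; blue, called lower) and of all 13642 genes tested (grey) called against 0 d at each later time, with lower calls drawn downwards. The blue bars reach 62.2% at 0.25 d and 59.5% at 0.5 d, and the 37 genes have no call at 4, 7 or 14 d. With only the 0 d and 0.5 d arrays in the fit, 12 of the 37 genes and 1438 of all 13642 were lower at 0.5 d.

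The 10 comparisons share the 0 d arrays and are not independent of each other. The samples of 0.25, 0.5, 0.75 and 1.5 d were registered in another run of sample numbers than those of 0 d and the other times. The labels used here do not say whether they were also processed apart. If they were, that and time after surgery cannot be told apart in any comparison of these 4 times with 0 d. The same holds for their comparisons with the other times of that run. Array medians lay between 5.32 and 5.38, and arrays correlated with the others of their time at 0.971 to 0.996. The lowest were 0.5 d replicate 3 (0.971) and 0.25 d replicate 1 (0.975), and the latter had the highest 18S ribosomal signal, 12.22. On 0.5 d replicate 3, 31 of the 37 genes had their lowest value of that time, and on 0.25 d replicate 1, 21 did. No other array reached 31, while some passed 21, with 27 on 7 d replicate 2 and 25 each on 0.75 d replicate 3 and 2 d replicate 3. With 0.5 d replicate 3 and 0.25 d replicate 1 left out together, 21 of the 37 genes were lower at 0.25 d and 20 at 0.5 d. Over all 13591 genes tested in that setting, 3496 and 2210 were. In whole liver, fewer cells of a type and less RNA per cell cannot be told apart.

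**Figure D2:**
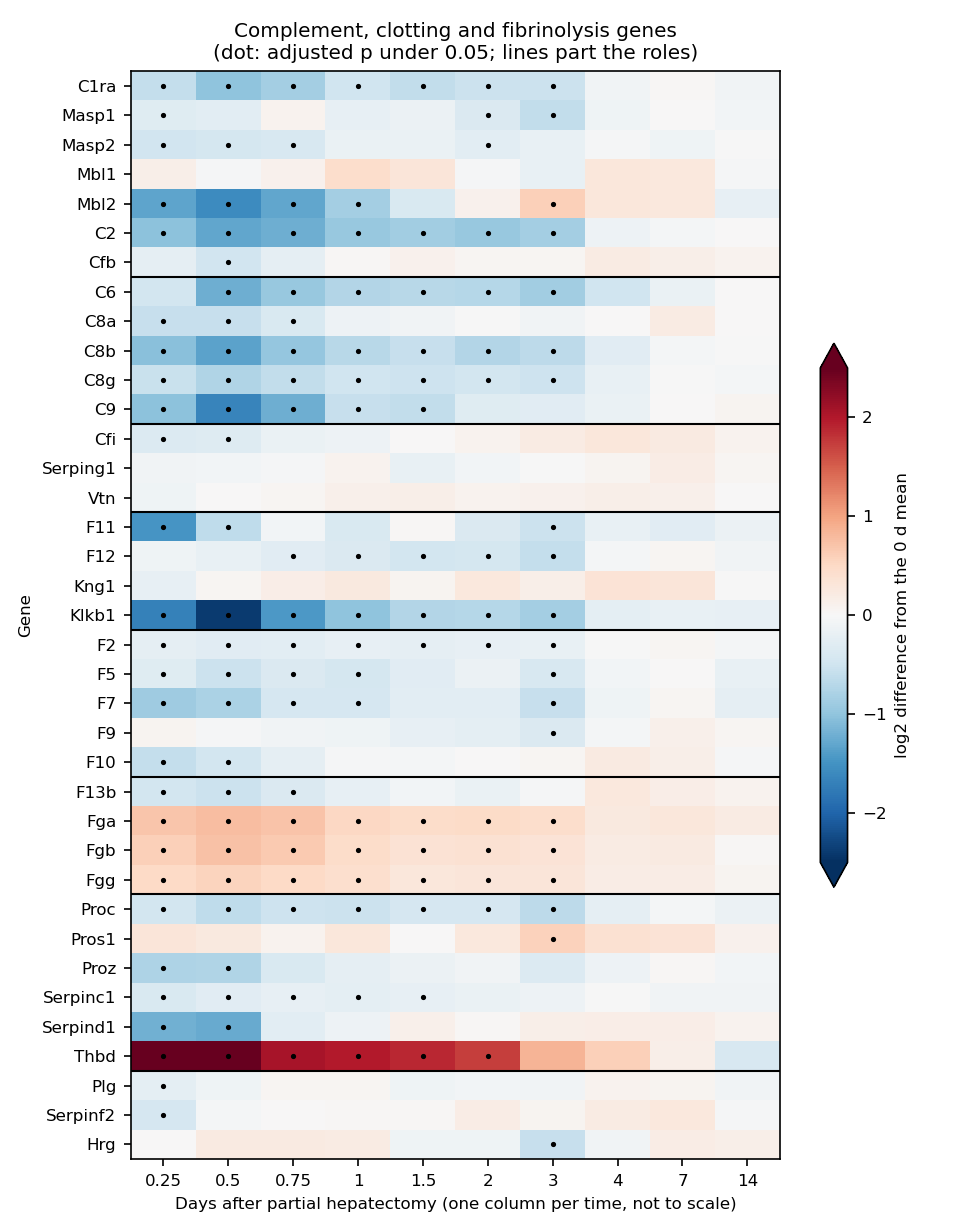
Log2 difference from the 0 d mean for each of the 37 genes (one line each, ordered by role) at each later time. Blue is lower, red is higher, dots mark calls, and the colour scale ends at 2.5 while Thbd reached 3.41. Blue fills most lines from 0.25 to 0.75 d, and Fga, Fgb, Fgg and Thbd are red from 0.25 d.

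Complement is started by recognition proteins. Mbl1 and Mbl2 encode the mannose-binding lectins, which bind sugars on microbes and carry the proteases made from Masp1 and Masp2, and C1ra encodes a protease of the classical pathway. Mbl2 was called lower on the first day and Mbl1 was not, and whether their courses differ was not tested. Mbl2 had values of 12.17, 12.49 and 12.60 at 0 d, 10.89, 11.18 and 11.21 at 0.25 d, and 10.19, 10.96 and 11.41 at 0.5 d. All arrays from 0.25 to 1.5 d lay below all 0 d arrays. The difference was -1.33 ± 0.21 at 0.25 d and -1.57 ± 0.21 at 0.5 d (2.97-fold lower, adjusted p = 1.89e-06), and Mbl2 was still called lower at 1 d (-0.85 ± 0.21).

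Mbl2 then passed its starting level. At 3 d its arrays read 12.98, 12.99 and 13.08, above every 0 d array (0.59 ± 0.21, adjusted p = 0.0431). It was no longer called with 0 d replicate 1 (0.469) or replicate 3 (0.627) left out, nor with any single 3 d array left out (0.562 to 0.611). Mbl1 had values of 10.87, 11.10 and 11.46 at 0 d and of 10.74, 11.24 and 11.39 at 0.5 d, so its arrays overlapped where Mbl2 was lowest. Its farthest time was 1 d, at 0.44 ± 0.17 (adjusted p = 0.0731).

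The proteases C1ra and Masp2 were also lower. C1ra had values of 10.82, 11.02 and 11.09 at 0 d and 9.77, 10.04 and 10.09 at 0.5 d, a difference of -1.01 ± 0.09 (2.02-fold lower, adjusted p = 3.07e-09). It was lower at all 7 times from 0.25 to 3 d, with no overlap with 0 d. Masp2 was lower by -0.48 ± 0.08 at 0.25 d, -0.43 at 0.5 d and -0.39 at 0.75 d. Its call at 2 d (-0.27) did not survive leaving out replicate 1 or 2 of either time (-0.274 to -0.243). A probe set shared by C1rb and C1ra was dimmer, with a mean of 8.09 at 0 d and 7.69 at 0.5 d.

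Masp1 has 5 probe sets, and they disagreed. The brightest was lower at 3 d (10.53, 10.53 and 10.57 at 0 d against 9.84, 9.86 and 10.05), by -0.62 ± 0.12 (adjusted p = 0.000605). At 2 d, with all probe sets tested, it was called lower by -0.37 while 3 others were called higher by 0.31 to 0.35. When its probe sets were averaged, Masp1 stood at 0.112 at 0.25 d, 0.186 at 2 d and 0.146 at 3 d. No direction is therefore given for Masp1. Among the 8 genes with several probe sets, this was the only gene and time with opposed calls.

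C2 encodes the protease that joins C4 in the enzyme that cleaves C3, and Cfb its counterpart in the alternative pathway. C2 fell early and, like C1ra, stayed low through 3 d. Its values were 10.07, 10.34 and 10.64 at 0 d, 8.92, 9.05 and 9.16 at 0.5 d, and 9.38, 9.52 and 9.62 at 3 d. Every array from 0.25 to 3 d lay below every 0 d array, and the difference was -1.31 ± 0.13 at 0.5 d (2.47-fold lower, adjusted p = 3.48e-08) and -0.84 at 3 d. At 4 d the arrays read 10.05, 10.28 and 10.33 and overlapped with 0 d. Cfb was called lower at 0.5 d alone (-0.48 ± 0.13), with arrays at 10.99, 11.59 and 11.66 against 11.84 to 11.93 at 0 d. Without 0.5 d replicate 3 it was not called (-0.265, adjusted p = 0.104). The probe set shared by C4a and C4b had means of 12.78 ± 0.15 (SD) at 0 d, 12.59 ± 0.20 at 0.5 d and 13.31 ± 0.16 at 7 d, and was not tested.

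The genes of the membrane attack complex, the pore that complement inserts into target membranes, all fell. Of 5 measured, 4 were lower at 0.25 d, 5 at 0.5 d and 3 at 3 d, where 28.8%, 19.4% and 10.9% of all genes tested were. C9 encodes the protein that forms the wall of the pore. Its 0 d arrays read 12.97, 12.98 and 12.996, its 0.5 d arrays 10.80, 11.60 and 11.61, and its 1 d arrays 12.32, 12.45 and 12.48. All arrays from 0.25 to 4 d lay below those of 0 d. The difference was -1.65 ± 0.14 at 0.5 d (3.13-fold lower, adjusted p = 2.66e-09), -1.38 without 0.5 d replicate 3, and -0.29 with no call at 3 d.

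C6 binds to the growing complex after C5b. It had arrays that overlapped with 0 d and no call at 0.25 d (-0.46 ± 0.19, adjusted p = 0.0538). At 0.5 d it read 9.40, 10.002 and 10.04 against 10.88, 10.96 and 11.29 at 0 d (-1.23 ± 0.19, adjusted p = 1.58e-05). C6 was lower through 3 d (-0.87 ± 0.19), but its calls at 1, 1.5 and 2 d were lost without 0 d replicate 2 (-0.603, -0.563 and -0.587).

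C8 is built from 3 chains made from C8a, C8b and C8g, and the genes C8a and C8b lie next to each other on chromosome 4, with their promoter windows 110.3 kb apart. The genes had different courses after the first day. C8b read 11.53, 11.71 and 11.83 at 0 d and 9.94, 10.53 and 10.61 at 0.5 d, a difference of -1.33 ± 0.15 (2.51-fold lower, adjusted p = 1.53e-07), and it was still called at 3 d (-0.65 ± 0.15). C8g was called at the same 7 times, from -0.74 ± 0.09 at 0.5 d to -0.46 at 2 d. C8a was lower by -0.58 ± 0.12 at 0.25 d and -0.58 at 0.5 d, and without 0.5 d replicate 3 by -0.386. Its call at 0.75 d (-0.38) did not survive leaving out replicate 2 or 3 of either time (-0.385 to -0.322). From 1 to 4 d C8a overlapped with 0 d (-0.12 at 1 d and -0.09 at 3 d). Whether these courses differ from each other was not tested.

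**Figure D3:**
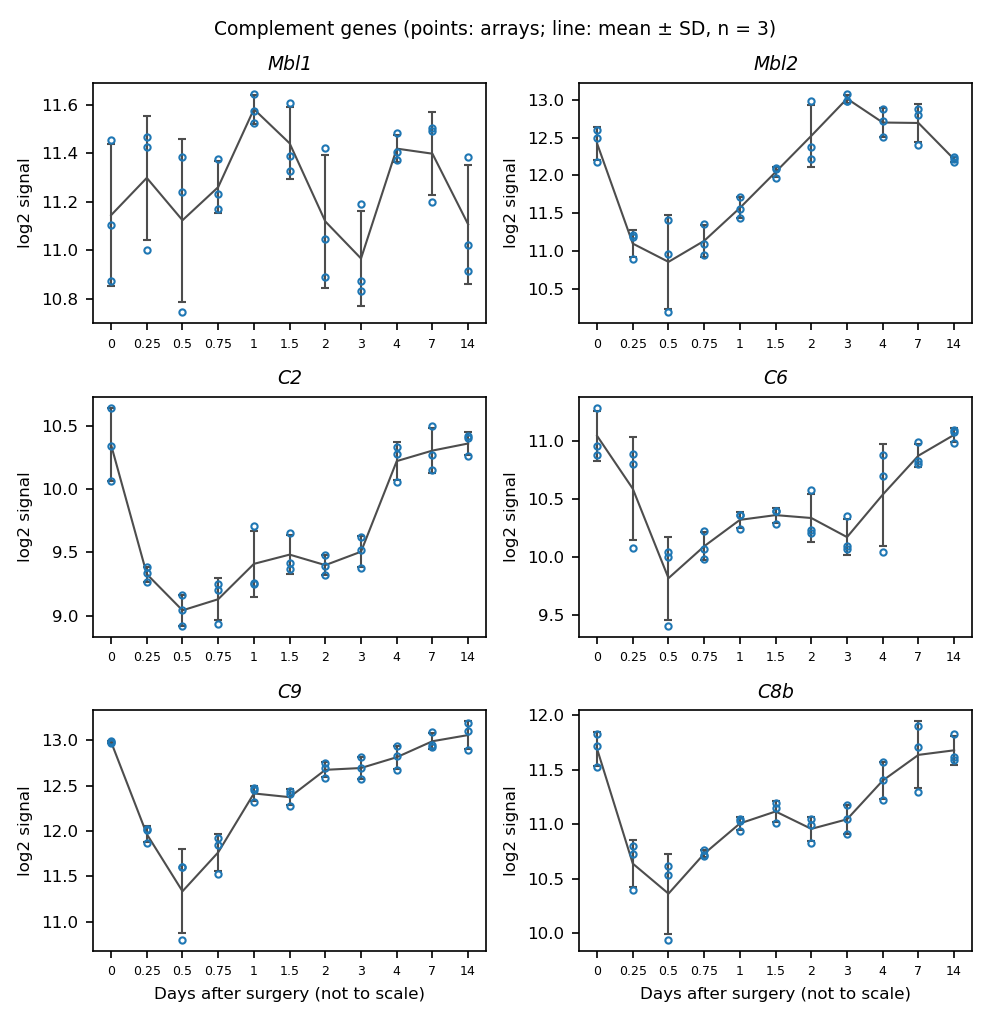
Log2 signal of 6 complement genes on each array (circles) with the mean and SD of the 3 arrays of each time, against days after surgery in order and not to scale. C2, C6, C8b and C9 are lowest at 0.5 d, Mbl2 falls to 10.85 and climbs to 13.02 at 3 d, and the arrays of Mbl1 overlap with 0 d at every time except 1 d.

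The 3 measured complement regulators moved little. Cfi encodes factor I, which cuts C3b and C4b. It was lower by -0.33 ± 0.09 at 0.25 d (arrays at 12.76, 12.76 and 12.83 against 12.97, 13.13 and 13.25) and by -0.33 at 0.5 d, and the call at 0.5 d was lost without 0.5 d replicate 3 (-0.16). At 3, 4 and 7 d its arrays lay above those of 0 d (0.20, 0.29 and 0.22), with no call. Serping1 encodes C1 inhibitor, which stops C1r, the MASP proteases and plasma kallikrein. Its time means spanned 12.77 to 13.14, and its largest difference from 0 d was 0.19 ± 0.10. Vtn, whose product vitronectin binds the forming attack complex, had overlapping arrays at every time, with differences from -0.11 to 0.16.

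The contact system starts clotting on surfaces. Factor XII (F12) activates plasma prekallikrein (Klkb1) and factor XI (F11), and kininogen (Kng1) carries both and releases bradykinin. Whether the courses of the 4 genes differ from each other was not tested. Klkb1 had the deepest fall of all 37 genes. Its arrays read 11.63, 11.68 and 11.93 at 0 d, 9.60, 10.27 and 10.27 at 0.25 d, 8.79, 9.54 and 9.72 at 0.5 d, and 10.05, 10.35 and 10.53 at 0.75 d. All arrays from 0.25 to 3 d lay below all 0 d arrays. The difference was -2.39 ± 0.19 at 0.5 d (5.26-fold lower, adjusted p = 7.71e-10), or -2.11 without 0.5 d replicate 3, and -0.84 ± 0.19 at 3 d. At 1.5 d (-0.72) the call was lost without 1.5 d replicate 3 (-0.606).

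F11 lies beside Klkb1 on chromosome 8, with 32.8 kb between their promoter windows, and arose with it from a common ancestral gene. F11 read 9.88, 10.19 and 10.63 at 0 d and 8.49, 8.78 and 9.02 at 0.25 d, a difference of -1.47 ± 0.19 (2.77-fold lower, adjusted p = 1.21e-06). Its 0.5 d arrays read 9.05, 9.76 and 9.96 and overlapped with 0 d, and it stood at -0.07 at 0.75 d, when Klkb1 was at -1.43. The F11 call at 0.5 d (-0.64) was lost with 0 d replicate 2 left out (-0.441), and with 0.5 d replicate 3 left out (-0.37). Its call at 3 d (-0.54) needed 0 d replicates 1 and 2 and each of the 3 d arrays (-0.571 to -0.342 with one of them left out).

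F12 fell later. It read 11.53, 11.62 and 11.70 at 0 d, overlapped with these at 0.25 and 0.5 d, and lay at 10.94, 11.003 and 11.15 at 3 d. The difference was -0.28 ± 0.08 at 0.75 d, -0.46 at 1.5 d and -0.59 at 3 d (adjusted p = 1.28e-05), and -0.05 at 4 d. The call at 0.75 d was lost with 0 d replicate 2 left out (-0.238), and with 0.75 d replicate 3 left out (-0.242). Kng1 was called at no time, with differences between -0.20 at 0.25 d and 0.34 at 4 d (arrays at 13.45, 13.46 and 13.47 at 4 d against 13.01, 13.12 and 13.24 at 0 d, adjusted p = 0.0817).

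**Figure D4:**
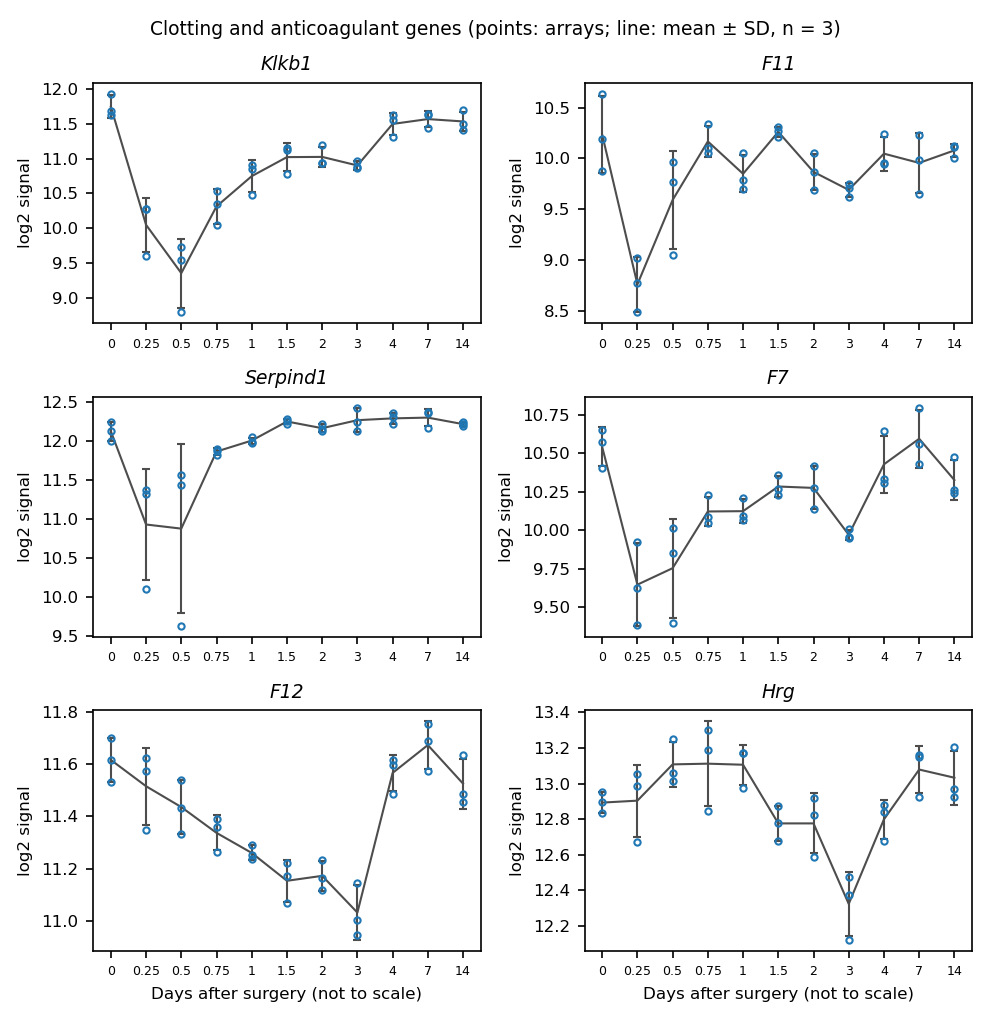
Log2 signal of 6 clotting, anticoagulant and fibrinolysis genes on each array (circles) with the mean and SD of the 3 arrays of each time, against days after surgery in order and not to scale. Klkb1 is lowest at 0.5 d and F11 at 0.25 d, F12 and Hrg are lowest at 3 d, and the low means of Serpind1 at 0.25 and 0.5 d each hold 1 array far below the other 2.

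The extrinsic, intrinsic and common pathways lead to thrombin. Factor VII (F7) binds tissue factor to start clotting, factor IX (F9) and factor X (F10) are the next proteases, factor V (F5) is the cofactor of factor X, and F2 encodes prothrombin. Of these 5 genes, 4 were lower at 0.25 d, 4 at 0.5 d and 4 at 3 d, where 28.8%, 19.4% and 10.9% of all genes tested were. F7 read 10.40, 10.57 and 10.65 at 0 d and 9.39, 9.63 and 9.92 at 0.25 d, a difference of -0.90 ± 0.14 (1.86-fold lower, adjusted p = 1.01e-05). It was at -0.79 at 0.5 d and, after a partial return (-0.27 at 2 d, no call), at -0.57 ± 0.14 at 3 d. Its calls at 0.75 d and 1 d (both -0.42) were each lost without 0 d replicate 1 or 2 and without other single arrays (-0.461 to -0.364).

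F10, 11.3 kb from F7 by their promoter windows, shared only the early fall. It was lower by -0.59 ± 0.10 at 0.25 d (10.95, 10.96 and 11.25 against 11.56, 11.65 and 11.72) and by -0.46 at 0.5 d, the latter -0.278 without 0.5 d replicate 3. By 1 d it overlapped with 0 d, and at 3 d it stood at 0.06. F5 was lower by -0.54 ± 0.10 at 0.5 d (11.03, 11.16 and 11.27 against 11.58, 11.71 and 11.79) and by -0.41 at 3 d. F5's calls at 0.25 d (-0.30) and 0.75 d (-0.35) were lost without 0 d replicate 2 (-0.251 and -0.306), and without 0.25 d replicate 1 (-0.223) or 0.75 d replicate 3 (-0.257).

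F2 changed by little but on all arrays. It read 13.40, 13.42 and 13.49 at 0 d and 13.04, 13.19 and 13.24 at 0.5 d, and no array from 0.25 to 3 d reached the 0 d range. The largest difference was -0.28 ± 0.07 at 0.5 d (1.21-fold lower, adjusted p = 0.00173). With only the arrays compared, limma did not call F2 at 0.25, 0.5, 1, 1.5, 2 or 3 d (adjusted p = 0.0815 to 0.272). The calls of F2 at 1, 1.5, 2 and 3 d (-0.23 to -0.19) were each lost without at least 2 of the arrays left out in turn, 0 d replicate 3 among them each time (-0.201 to -0.158). At 2 d the difference was -0.12 without 2 d replicate 3. F9 did not follow the early fall. It read 11.58, 11.61 and 11.62 at 0 d and 11.38, 11.76 and 11.84 at 0.25 d, and was called lower at 3 d only (11.14, 11.21 and 11.34; -0.37 ± 0.10), a call lost without 3 d replicate 2 (-0.325).

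Fibrinogen is a protein of 3 chains, made from Fga, Fgb and Fgg, and F13b encodes the carrier of factor XIII, which crosslinks fibrin. The 3 chain genes lie side by side on chromosome 3, with 18.4 kb between the promoter windows of Fgg and Fga and 23.9 kb between those of Fga and Fgb. They rose together. Because of that, the 250 bases before the start of each are shown from RefSeq (GRCm38.p6), in the direction of transcription. Fgg is at chr3:83007474-83007723 on the plus strand, Fga at chr3:83025903-83026152 on the plus strand, and Fgb at chr3:83049864-83050113 on the minus strand. Capitals mark the motifs found among those searched.
Fgg: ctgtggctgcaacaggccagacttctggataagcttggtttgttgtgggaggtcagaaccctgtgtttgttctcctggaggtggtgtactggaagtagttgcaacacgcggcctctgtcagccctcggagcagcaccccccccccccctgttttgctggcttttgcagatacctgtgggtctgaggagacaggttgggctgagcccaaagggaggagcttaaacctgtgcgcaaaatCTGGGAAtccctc
Fga: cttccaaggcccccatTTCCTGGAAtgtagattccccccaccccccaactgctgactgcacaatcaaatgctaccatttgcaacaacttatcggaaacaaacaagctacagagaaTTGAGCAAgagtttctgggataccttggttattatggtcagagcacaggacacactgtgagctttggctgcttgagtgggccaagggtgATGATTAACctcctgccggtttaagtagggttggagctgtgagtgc
Fgb: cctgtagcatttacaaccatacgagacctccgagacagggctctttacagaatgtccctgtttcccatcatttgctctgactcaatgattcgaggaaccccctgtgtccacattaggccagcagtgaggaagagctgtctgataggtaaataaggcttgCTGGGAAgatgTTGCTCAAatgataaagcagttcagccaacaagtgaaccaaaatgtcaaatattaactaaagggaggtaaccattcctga

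The motifs searched on both strands were CTGGGAA (the type II element known from genes that respond to interleukin-6), TTCCNGGAA (bound by STAT factors), TTNNGCAA (bound by C/EBP factors), GTTAATNAT (HNF1) and CAAAGTCCA (HNF4). Fgg holds CTGGGAA 13 to 7 bases before its start. Fgb holds the same letters 91 to 85 bases before its start and a C/EBP match from 80 to 73. Fga holds a STAT match from 234 to 226, a C/EBP match from 135 to 128 and an HNF1 match from 46 to 38. No 2 of these matches share a base. Windows were given for 28 of the 37 genes. CTGGGAA was in 5 of the 28 (17.9%) and in 10.4% of 27025 gene windows, and TTNNGCAA in 7 (25%) and 10.8%. TTCCNGGAA was in 2 (7.14%) and 1.09%, GTTAATNAT in 2 (7.14%) and 0.866%, and CAAAGTCCA in 0 and 0.451%. These letters were not particular to the genes that rose. CTGGGAA was also in the windows of C1ra and Masp2, which fell, and of F9, which had no call on the first day, and TTNNGCAA in those of C9, F11 and Klkb1, which fell, and of F9 and Hrg. TTCCNGGAA was also in that of Pros1 and GTTAATNAT in that of F13b. A match of letters is no evidence of binding, and these counts were not tested.

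Fga read 12.97, 13.16 and 13.28 at 0 d, 13.81, 13.83 and 13.84 at 0.25 d, and 13.91 on all 3 arrays at 0.5 d. Fgb read 13.70, 13.88 and 13.90 at 0 d and 14.55, 14.55 and 14.56 at 0.5 d. Fgg read 13.82, 14.02 and 14.06 at 0 d and 14.52, 14.52 and 14.53 at 0.5 d. In all 3 genes every array from 0.25 to 3 d lay above every 0 d array. At 0.5 d the rise was 0.77 ± 0.10 for Fga (1.71-fold, adjusted p = 7.09e-07), 0.73 ± 0.10 for Fgb (1.66-fold, adjusted p = 5.45e-06) and 0.56 ± 0.09 for Fgg (1.47-fold, adjusted p = 1.49e-05).

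The rise lasted through 3 d, at 0.43, 0.34 and 0.29 for Fga, Fgb and Fgg. The calls of Fga held whichever array was left out. Those of Fgb and Fgg at 1.5, 2 and 3 d were each lost without 0 d replicate 1 (Fgb 0.296, 0.31 and 0.275; Fgg 0.216, 0.236 and 0.22), and some also without 1.5 d replicate 3, 2 d replicate 1 or 3 d replicate 2 or 3 (0.24 to 0.322). These genes sit near the top of the scale, where an array's brightest probe set read 14.80 to 14.89. Only 2 to 69 of 45101 probe sets on an array were brighter than Fgb. The SD of the 3 arrays at 0.5 d was 0.001, 0.006 and 0.004 for Fga, Fgb and Fgg, against 0.159, 0.108 and 0.127 at 0 d. Whether the top of the scale limited the size of the rise was not tested.

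F13b went the other way. It read 11.42, 11.46 and 11.60 at 0 d and 10.62, 11.02 and 11.21 at 0.5 d, a difference of -0.54 ± 0.12 (adjusted p = 0.000665), and it overlapped with 0 d from 1.5 to 3 d. Its call at 0.75 d (-0.37) was lost with 0 d replicate 1 left out (-0.316), and with 0.75 d replicate 3 left out (-0.252).

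**Figure D5:**
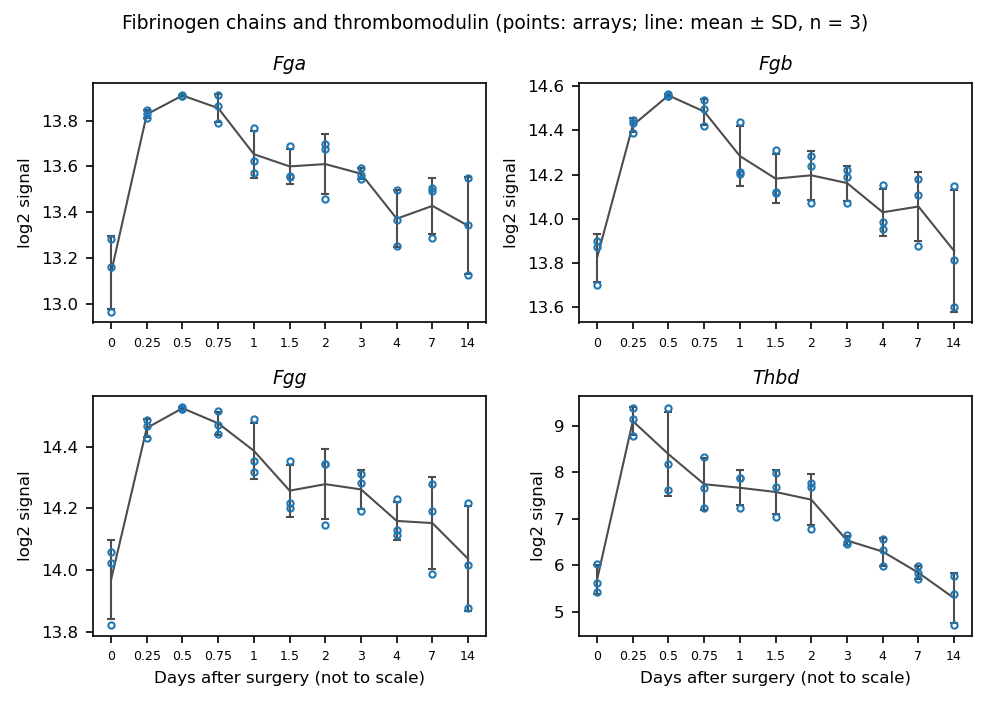
Log2 signal of the 3 fibrinogen chain genes and of Thbd on each array (circles) with the mean and SD of the 3 arrays of each time, against days after surgery in order and not to scale. The fibrinogen arrays nearly coincide at 0.5 d and sit above the 0 d arrays through 3 d, and Thbd goes from 5.69 to 9.10 at 0.25 d and back to 5.84 at 7 d.

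The anticoagulant genes moved in both directions. Thbd encodes thrombomodulin, the receptor on endothelial cells that turns thrombin into an activator of protein C, and it had the largest change of all 37 genes. It read 5.42, 5.62 and 6.02 at 0 d, 8.78, 9.14 and 9.38 at 0.25 d, 7.62, 8.17 and 9.38 at 0.5 d, and 7.23, 7.88 and 7.89 at 1 d. Every array from 0.25 to 3 d lay above every 0 d array. The rise was 3.41 ± 0.36 at 0.25 d (10.7-fold, adjusted p = 5.99e-08) and 1.72 ± 0.36 at 2 d (3.30-fold), and at 3 d 0.84 with no call (adjusted p = 0.0949). The 0 d values lie near the filter value of 5, and how far the floor of the arrays shortens this difference was not tested.

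Markers of endothelial cells did not move with Thbd as a group. Of 8 at 0.25 d, 1 rose (Lyve1, by 2.64 ± 0.44) and 3 fell (Kdr by -1.08 ± 0.16, Stab2 by -0.34 and Eng by -0.34), and Pecam1 (0.25) and Cdh5 (0.40) were not called. The mean over the 8 ranged from 7.54 to 7.80 on the 0 d arrays and from 7.66 to 7.96 at 0.25 d. Markers of neutrophils and monocytes rose in 4 of 4 cases, and their mean went from 5.13 to 5.45 at 0 d to 6.49 to 6.88 at 0.25 d. Over all genes tested, 17.2% were higher and 28.8% lower at 0.25 d. The part of these markers in the Thbd result was not tested.

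Proc encodes protein C, which thrombomodulin helps to activate and which then cuts factors V and VIII. It fell on all arrays, from 12.38, 12.44 and 12.46 at 0 d to 11.64, 11.88 and 11.89 at 0.5 d, and lay at 11.75, 11.78 and 11.81 at 3 d. The difference was -0.63 ± 0.07 at 0.5 d (adjusted p = 2.16e-07) and -0.65 ± 0.07 at 3 d (1.57-fold lower, adjusted p = 8.55e-07), and all 7 calls held whichever array was left out. Pros1 encodes protein S, the cofactor of protein C. It was called at 3 d alone, in the other direction (9.53, 9.55 and 9.74 against 8.97, 9.003 and 9.14; 0.57 ± 0.16, adjusted p = 0.0124). The F-test did not call Pros1, and the 3 d call was lost without 3 d replicate 2 (0.501).

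Serpinc1 encodes antithrombin and Serpind1 heparin cofactor II, inhibitors of thrombin. Serpinc1 read 13.81, 13.86 and 13.98 at 0 d and 13.39, 13.55 and 13.57 at 0.25 d, a difference of -0.38 ± 0.07 (1.30-fold lower, adjusted p = 0.000111). Its calls at 0.75, 1 and 1.5 d (-0.24 to -0.20) were lost without 0 d replicate 2 (-0.164, -0.194 and -0.155) and without other single arrays (-0.229 to -0.179). Serpind1 read 12.01, 12.14 and 12.25 at 0 d, 10.11, 11.32 and 11.37 at 0.25 d, and 9.63, 11.44 and 11.57 at 0.5 d. All 6 early arrays lay below the 0 d range, but the size rests on the lowest of each time. The difference was -1.20 ± 0.30 at 0.25 d, or -0.785 without 0.25 d replicate 1, and -1.25 ± 0.30 at 0.5 d, or -0.626 without 0.5 d replicate 3. With only the 0 d and 0.5 d arrays in the fit, limma did not call Serpind1 at 0.5 d (adjusted p = 0.121). At 0.75 d the difference was -0.26 with no call.

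Proz encodes protein Z, which helps the inhibitor made from Serpina10 to block factor X. Proz lies after F7 and F10 on chromosome 8, 23.6 kb from F10 by their promoter windows. It read 11.36, 11.39 and 11.41 at 0 d, 10.48, 10.50 and 10.86 at 0.25 d, and 10.09, 10.89 and 10.93 at 0.5 d. It was lower by -0.77 ± 0.15 at 0.25 d (1.71-fold, adjusted p = 0.000249) and by -0.75 at 0.5 d, or -0.473 without 0.5 d replicate 3. Serpina10, which is outside the 37 genes, rose at the same times, from 11.76 ± 0.16 (SD) at 0 d to 12.94 ± 0.50 at 0.25 d and 12.96 ± 0.17 at 0.5 d (1.19 ± 0.21 and 1.21 ± 0.21, adjusted p = 4.71e-05 and 4.6e-05).

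Fibrin is dissolved by plasmin, made from plasminogen (Plg). Its inhibitor is antiplasmin (Serpinf2), and Hrg encodes histidine-rich glycoprotein, which binds plasminogen and heparin. Of these 3 genes, 2 were lower at 0.25 d and 0 at 0.5 d by limma, also at an unadjusted p under 0.05. Over all genes tested 28.8% and 19.4% were called lower at these times. Plg read 13.69, 13.76 and 13.83 at 0 d and 13.44, 13.50 and 13.60 at 0.25 d (-0.25 ± 0.07, adjusted p = 0.00365), and overlapped with 0 d at 0.5 d. With only the 0 d and 0.25 d arrays in the fit, limma did not call Plg (adjusted p = 0.108). Serpinf2 was lower at 0.25 d (-0.42 ± 0.13; 11.63, 11.86 and 12.05 against 12.13, 12.16 and 12.51), a call lost with 0 d replicate 2 left out (-0.299), and with 0.25 d replicate 1 left out (-0.314). Hrg was called at 3 d only. It read 12.12, 12.37 and 12.48 there against 12.83, 12.90 and 12.95 at 0 d (-0.57 ± 0.12, 1.48-fold lower, adjusted p = 0.00152), after arrays at 13.01, 13.06 and 13.25 at 0.5 d (0.22, no call).

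The vitamin K dependent proteins, F2, F7, F9, F10, Proc, Pros1 and Proz, cut across these roles. Of the 7, 5 were lower at 0.25 d and the same number at 0.5 d, with F9 and Pros1 uncalled, and 4 were lower and 1 higher at 3 d. Over all genes tested, 28.8% were lower at 0.25 d and 19.4% at 0.5 d, and 10.9% were lower and 10.2% higher at 3 d. Ggcx, the enzyme that makes the vitamin K dependent modification, was lower at 0.25 d by -0.88 ± 0.15 (adjusted p = 4.72e-05). Vkorc1, which recycles vitamin K, was lower at 3 d by -0.50 ± 0.12 (adjusted p = 0.00284). Its mean was lowest at 0.25 d, with 12.21 at 0 d, 11.5 at 0.25 d, 11.94 at 0.5 d and 11.71 at 3 d. Whether enzymes and substrates are linked was not tested.

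Most genes were farthest from their 0 d mean on the first day, 10 of them at 0.25 d and 17 at 0.5 d. For 6 genes the farthest time was 3 d, and of these F12, F9, Proc and Hrg were lower there and Pros1 higher. The sixth was Masp1, by its brightest probe set, for which no direction is given. For 1 gene each it was 1, 1.5, 4 or 7 d. F5, F7 and F11 were called lower at 0.5 d and 3 d but not at 2 d (-0.15, -0.27 and -0.37 there), and 3 d was not tested against 2 d.

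Comparisons without the 0 d arrays gave the return of the early group. Each of them crosses the runs of sample numbers named above, at least in part, and the part of this was not tested. At 1.5, 2 and 3 d as one group against 0.25, 0.5 and 0.75 d, 21 genes were higher and 8 lower, where 26.6% of all genes tested were higher and 25.2% lower. Mbl2 (1.50 ± 0.12), Klkb1 (1.08 ± 0.11), Serpind1 (1.01 ± 0.18) and C9 (0.89 ± 0.08) rose most. The 8 called lower were Thbd (-1.24 ± 0.21), Hrg (-0.42 ± 0.07), F12, Fgb, Fga, F9, Fgg and the brightest probe set of Masp1 (-0.31 to -0.22), and no direction is given for Masp1. At 7 and 14 d against 1.5, 2 and 3 d, 18 genes were higher and 4 lower, against 19.3% and 19.9% of all genes. C2 (0.87 ± 0.09), C6 (0.68 ± 0.12), C8b (0.62 ± 0.10), Klkb1 (0.57 ± 0.12) and C1ra (0.52 ± 0.06) led the rise. The 4 that fell were Thbd (-1.61 ± 0.23), Fgb (-0.23), Fga (-0.21) and Fgg (-0.17), and without 14 d replicate 3 only 1 gene was called lower. At 1.5 d against 1 and 2 d, 0 genes were higher and 0 lower by limma, where 0.00733% and 0.0147% of all genes were (1 higher and 2 lower at an unadjusted p under 0.05), and differences of the 37 genes lay between -0.28 and 0.40.

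Other genes of the pathways were taken from lists of complement, clotting and fibrinolysis genes. Of 16 other complement genes tested, 0 rose and 3 fell at 0.25 d, and 0 rose and 5 fell at 0.5 d by limma (0 and 1 rose at an unadjusted p under 0.05). The 3 are 18.8% of the list, below the 28.8% of all genes that were lower at 0.25 d, and the 5 are 31.2%, against 19.4% at 0.5 d. At 0.25 d Cpn2, a subunit of the carboxypeptidase that inactivates anaphylatoxins, fell by -0.74 ± 0.22, Cd59a, an inhibitor of the attack complex, by -0.64 ± 0.12, and Hc, which encodes C5, by -0.57 ± 0.13. At 0.5 d the collectins Colec11 and Colec10 were at -0.84 ± 0.23 and -0.70 ± 0.22. C4bp, which encodes a chain of the C4b-binding protein, was called higher at every time from 0.75 d (0.38 ± 0.14) to 4 d (0.67 ± 0.14).

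Of 15 other clotting genes, 3 rose and 6 fell at 0.25 d (20% and 40%, against 17.2% and 28.8% of all genes), and 4 rose and 2 fell at 0.5 d (26.7% and 13.3%, against 15.8% and 19.4%). Those called lower at 0.25 d included the thrombin receptor F2r (-0.77 ± 0.13) and tissue factor (F3), whose mean of 4.29 at 0.25 d lies under the filter value of 5, so that no size is given for it. Mcfd2, part of the receptor that carries factors V and VIII out of the endoplasmic reticulum, rose at 0.5 d by 0.62 ± 0.11, while F8 fell by -0.57 ± 0.13. Of 8 other fibrinolysis genes, 2 rose at 0.25 d and 3 at 0.5 d, and 0 fell at either time by limma (1 and 0 at an unadjusted p under 0.05). These rises are 25% and 37.5% of the list, against 17.2% and 15.8% of all genes. The urokinase receptor Plaur rose by 0.97 ± 0.16 at 0.25 d, the transglutaminase Tgm2 by 1.58 ± 0.31, and S100a10, which with annexin A2 binds plasminogen at the cell surface, by 1.30 ± 0.23 at 0.5 d. Annexin A2 (Anxa2) was higher at 3 d (1.40 ± 0.29) and 4 d (1.10 ± 0.29).

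Regulators and markers that moved at the same times are given as values. Of 9 liver transcription factor and interleukin-6 pathway genes, 7 rose and 1 fell at 0.25 d. Socs3, a feedback inhibitor of that pathway, rose by 3.69 ± 0.67, Cebpd by 2.57 ± 0.40, Stat3 by 1.51 ± 0.19 and Cebpb by 1.17 ± 0.24, Hnf4a rose by 0.32 ± 0.08, and Cebpa fell by -1.59 ± 0.23. Of 17 other acute phase genes, 11 rose and 1 fell. Of 8 clock genes, 2 rose and 3 fell at 0.25 d, with Dbp at -3.62 ± 0.86 and Arntl at 1.37 ± 0.51, and the labels used here give no hour of sampling. The mean of the 5 hepatocyte markers lay between 13.29 and 13.39 at 0 d and between 12.85 and 13.10 at 0.5 d. Most of this drop came from Cebpa, whose mean went from 11.15 to 9.54. Alb went from 14.69 to 14.66, Apoa1 from 14.47 to 14.44, Ttr from 14.45 to 14.28 and Hnf4a from 11.96 to 12.08. Of 7 Kupffer cell and macrophage markers, 1 rose and 4 fell at 0.5 d. Over all genes tested, 17.2% rose and 28.8% fell at 0.25 d, and 15.8% rose and 19.4% fell at 0.5 d. The part of any of these regulators and markers in the results above was not tested.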

How the data were processed

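Liver RNA was purified with Trizol and biotin-labelled from its 3' ends, per the labels' protocols. The authors' deposited log2 values were made with RMA, as the submitters' processing notes state without a version. RMA evens out the arrays' distributions, so a shift common to most genes is not seen, and values near the floor are compressed. Of 45101 probe sets, 34945 have a single symbol, 932 several, and 64 are controls. The single-symbol probe set with the highest mean stood for a gene, and 4551 of 18193 genes were dropped as dim.

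A mean per time was fitted to 33 arrays with limma 3.58.1 in R 4.3.3 (22 residual degrees of freedom, prior 3.69), and two-sided p-values were adjusted over all genes of a comparison (Benjamini-Hochberg, called under 0.05). The steps were checked on simulated data. Any of the listed genes could be named, and of other list genes up to 4 per list and comparison, by size, as well as marker, clock and acute phase genes. The genes and lists were chosen with earlier results of these data known. Alternatives were another filter or none, averaged probe sets, quantile normalization, a common median, an intensity trend, array weights, a replicate block, only the arrays compared, each array left out, and, added after seeing the data, 2 arrays left out together. No 2 arrays held identical values. The number of arrays limits the precision. The p-values set a difference against the spread between livers of the same time, pooled over all times in the fit. Python 3.11.15 with matplotlib 3.10.9 drew the plots.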

Additional observations from a re-analysis of the deposited data

How the results depend on the processing

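The 37 genes had 142 calls against 0 d over all times. Of these, 142 were kept with a filter at a log2 value of 7, with a common median, with an intensity trend and robust prior, and with the replicate number as a block. Array weights kept 138, quantile normalization 140, no filter 136, and the fit of only the arrays compared 109. Averaging probe sets kept 139 and turned the sign of Masp1 at 0.25, 2 and 3 d (0.112, 0.186 and 0.146). With 0.25 d replicate 1 and 0.5 d replicate 3 left out together 137 were kept. With each array left out in turn, 107 calls held throughout and 35 were lost at least once. With only the arrays compared, 12 genes were lower at 0.5 d and 2 higher at 2 d. Over all 13642 genes tested, this fit called 1438 lower at 0.5 d and 842 higher at 2 d. With all arrays these were 2650 and 1494. The calls this fit lost at 0.5 d were those of Cfb, C8a, Cfi, F11, F2, F10, F13b, Proz, Serpinc1 and Serpind1. At 0.25 d it lost those of Masp1, Cfi, F2, F5, Plg and Serpinf2. At 4 d, 1 gene was higher with the mean of probe sets, 1 with array weights, and 1 higher and 1 lower without both doubted arrays.

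Leaving out an array gave 11 to 15 genes lower at 0.75 d, 2 to 4 higher at 1.5 d, 2 to 5 higher and 7 to 11 lower at 2 d, 1 to 5 higher at 3 d, and 1 to 4 lower at 7 and 14 d against 1.5, 2 and 3 d. The lowest came without 0.75 d replicate 3, 0 d replicate 1 (or 1.5 d replicate 3), 0 d replicate 1 and 2, 3 d replicate 2 and 14 d replicate 3. At 0.25 d quantile normalization moved the split of all genes from 2340 higher and 3925 lower to 3075 and 3151, of 13608 tested. The causes were not tested.

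The replicate numbers did not pair the arrays: deviations of same-numbered arrays correlated at -0.353 to 0.389 over 165 pairs (median 0.018), and 15 of 33 arrays correlated best with their own number. Thbd had dim 0 d values, the fibrinogen genes were close to the brightest signals, and how far either limits the size of a change was not tested.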
